A study of Nicotiana tabacum with 12 samples.

Results

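In leaves of burley tobacco that express a plastid protease transgene, 117 genes were chosen for their share of the library counts. That share was higher in each of 9 transgenic libraries than in any of 3 untransformed libraries. The choice was made from the read counts by 3 conditions on counts per 1000000 of the library total (CPM). The lowest of the 9 transgenic libraries lay above the highest untransformed library, the mean of the 9 was at least 5 CPM, and that mean was at least 1.4 times the untransformed mean. The 117 genes are 0.443% of the 26436 genes whose transgenic mean reached 5 CPM, out of 61526 identifiers in the count table. The choice set aside 3 identifiers, of which 1 met the conditions. Higher levels in the transgenic leaves are therefore a property of the choice, and they are described below without a test.

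The untransformed group, called CK, is the burley cultivar TN90. The transgenic groups are 3 lines of the same cultivar, P2.4a, P3.9a and P9.10a, with the gene NtYb1, also named NtEGY2, under the 35S promoter. That promoter is active in most plant tissues. The lines are green-stem segregants descended from primary transformants, and the labels do not say whether the plants of a line share 1 transgene insertion. Each group has 3 libraries of leaf RNA from plants grown in a field at Oxford, North Carolina, with the upper leaves frozen before they matured. The labels list no other modification. Their treatment text also speaks of root inoculation, and it numbers the P3 plant differently from the titles, which are followed here. The sources used here do not say how many plants went into a library. The stated question of the study is how carbon and nitrogen metabolism differ with the alleles at the Yb1 and Yb2 loci.

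Burley tobacco is pale because it is homozygous for recessive alleles at Yb1 and Yb2, which delay greening and lower leaf chlorophyll. EGY proteins are metalloproteases of the chloroplast membrane, and in Arabidopsis the related EGY1 is needed for chloroplast development. In a leaf, cell number is set by division early in growth, when D-type cyclins release the retinoblastoma protein's hold on the genes of DNA synthesis, and later growth is by expansion and by rounds of DNA replication without division.

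The CK libraries held 16657112 to 18444571 counts and the transgenic ones 13536964 to 16788583. All libraries held different values. Between replicates the chi-square per degree of freedom was 24.0 and 24.9 for the pairs with P3.9a replicate 1 and ran from 5.95 to 14.1 for the other pairs, so that library stood apart. The level of the transgene is not analysed here, since no EGY symbol was matched, and the labels were not checked against it. Summed CPM of 6 leaf mesophyll markers was 10778 to 12468 in CK and 9413 to 13529 in the lines. The root marker TobRB7 stayed at or under 1.91 CPM in every library. In bulk leaf RNA, fewer cells of a type and less RNA per cell cannot be told apart.

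Most of the 117 genes stood above CK by a modest margin. The median ratio of transgenic to CK mean was 1.499, against 1.055 over all 26436 genes at the CPM limit. The ratio was under 1.5 in 59 genes, from 1.5 to under 2 in 41 and at least 2 in 17, with 3 genes at 3 or more. The margin between the lowest transgenic and the highest CK library was narrower still, with a median of 1.08-fold. It was under 1.1-fold in 70 genes, at least 1.2-fold in 12 and at least 1.4-fold in 5. Without the fold condition, 532 genes (2.01% of the 26436) had all 9 libraries above CK, and 280 of 25848 genes (1.08%) had all 9 below. In the fit over all genes the median log2 change of the 117, as the mean of the lines minus CK, was 0.51 against 0.00205 over all 39207 genes tested. All 117 passed the filter on low counts.

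**Figure D1:**
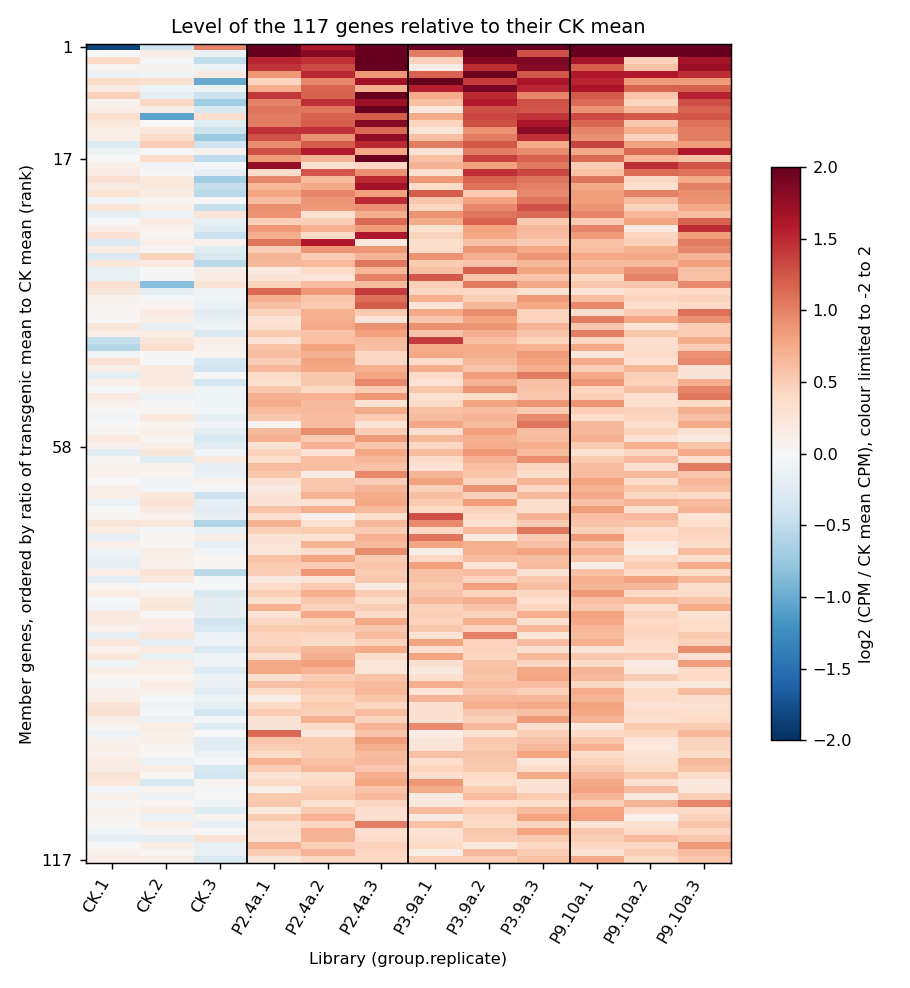
Each row is 1 of the 117 genes, ordered by the ratio of transgenic to CK mean, and each column is 1 library; colour is the log2 of CPM over the CK mean, limited to -2 and 2. The 9 transgenic columns are red throughout, palest in P3.9a replicate 1 and P9.10a replicate 2 for many rows, and CK replicate 3 is the bluest CK column.

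The choice depends on how libraries are scaled, because TMM scaling factors, which correct for differences in composition, were 0.929 to 0.979 in CK and 0.960 to 1.07 in the transgenic libraries. With TMM scaling 50 of the 117 genes met all the conditions and no other gene did. Under that scaling 81 of the 117 still had all 9 libraries above CK, and the lowest ratio among the 117 was 1.33. With column totals 532 genes had all 9 above CK and 280 had all 9 below, so 65.5% of these genes lay above. With TMM the numbers were 218 and 569 (27.7% above), and with DESeq2 size factors 231 and 560 (29.2% above). Total scaling put the median log2 ratio of all genes at the CPM limit at 0.0771, TMM at 0.0013 and DESeq2 size factors at 0.0042.

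The level range of the 117 was that of weakly to moderately expressed leaf genes. The median transgenic mean was 10.7 CPM, against 15.5 over all genes at the limit. It was under 10 CPM in 55 of the 117 (47.0%), against 29.3% of all genes at the limit, and over 50 CPM in 7. By annotation 109 are protein coding (93.2%, against 91.5% of all genes at the limit), 2 are long non-coding RNAs and 6 are not in the reference table. The median annotated span was 6727 bases for the 111 with a span, against 5491 over all genes at the limit. Only 5 of the 117 have a symbol (4.27%, against 2.86%), so the others are given by identifier and their roles are not known here. Reads of genes with a close copy, common in this allotetraploid, could have been split by a counting rule that the sources used here do not state.

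The genes with a symbol are a D-type cyclin, a further cyclin, a retinoblastoma-related protein, a DNA methyltransferase and MIP. CycD3.1 (LOC107792202) encodes a D-type cyclin, which partners the kinase that opens the way into DNA synthesis. It stood at 25.1, 23.5 and 19.7 CPM in CK, at 31.9, 32.8 and 37.7 in P2.4a, at 27.4, 32.5 and 35.6 in P3.9a, and at 37.0, 26.0 and 30.9 in P9.10a. Its lowest transgenic library, P9.10a replicate 2, lay just above the highest CK library. The mean ratio was 1.42, and the fitted log2 change was 0.43 (SE 0.12).

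The gene with the bare symbol cyclin (LOC107793085), a regulatory partner of cell cycle kinases, had a clearer gap. It read 17.05, 16.4 and 15.2 CPM in CK, 26.6, 23.7 and 34.9 in P2.4a, 26.5, 22.6 and 29.1 in P3.9a, and 24.9, 21.8 and 22.4 in P9.10a. The CK libraries were close together and all 9 transgenic libraries lay at least 1.28-fold above them. The fitted change was 0.59 (SE 0.11).

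NtRb1 (LOC107777437) encodes the retinoblastoma-related protein, which D-type cyclin kinases inactivate and which restrains E2F transcription factors. Its CPM was 42.5, 43.5 and 34.8 in CK, 59.3, 57.6 and 72.1 in P2.4a, 47.1, 58.3 and 60.04 in P3.9a, and 59.3, 48.3 and 54.7 in P9.10a. P3.9a replicate 1 was the lowest of the 9, and CK replicate 3 was well below the other two CK libraries. The fitted change was 0.44 (SE 0.12).

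NtMET1 (LOC107759467) encodes the methyltransferase that copies CG methylation onto newly made DNA. Its CPM was 6.72, 6.23 and 3.404 in CK, 10.6, 8.46 and 15.3 in P2.4a, 9.91, 12.4 and 11.4 in P3.9a, and 11.5, 7.30 and 9.09 in P9.10a. CK replicate 3 was low and P2.4a replicate 3 high within their groups. The ratio of means was 1.95 and the fitted change 0.89 (SE 0.21).

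MIP (LOC107802501) read 39.5, 41.9 and 30.8 CPM in CK, 53.4, 59.2 and 62.4 in P2.4a, 47.3, 51.3 and 46.4 in P3.9a, and 45.1, 47.6 and 71.4 in P9.10a. Here P9.10a replicate 3 was far above the other libraries of its line. The fitted change was 0.45 (SE 0.15). With TMM scaling the bare-symbol cyclin and NtMET1 still met every condition. CycD3.1 kept all 9 libraries above CK at a ratio of 1.35, while NtRb1 (1.36) and MIP (1.37) had 8 of 9 above.

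**Figure D2:**
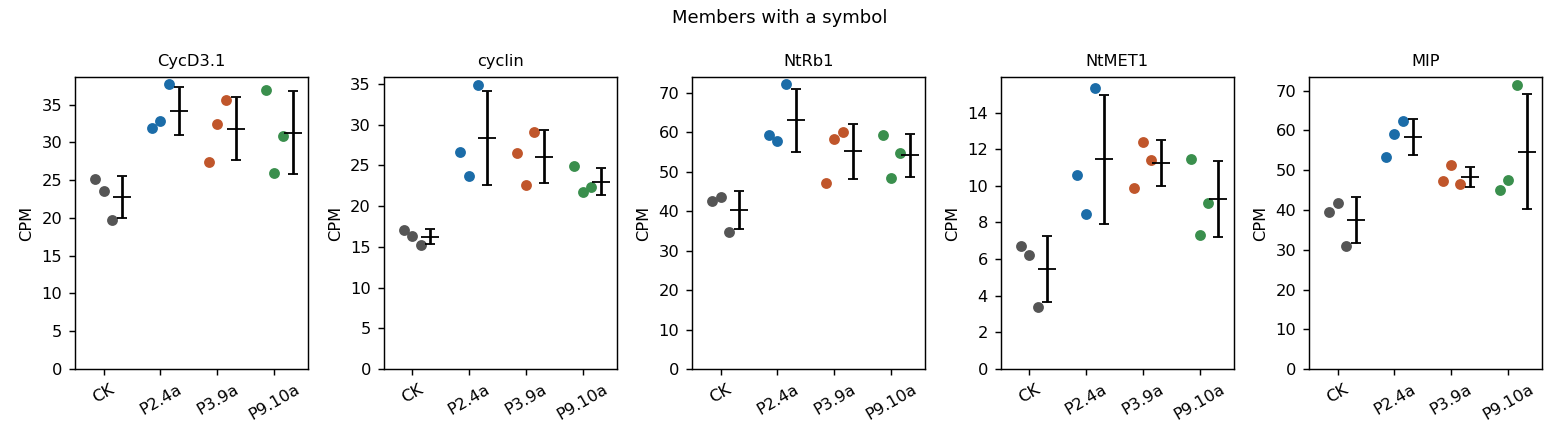
CPM of the 5 genes with a symbol; each point is 1 library, and the dash and bar beside the points are the mean and SD of 3 libraries. All 9 transgenic points lie above the CK points in each panel, with the widest gap in the gene with the symbol cyclin.

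Other cell cycle genes were then listed by symbol, after values had been seen: 27 genes in all, of which 26 were tested and 4 are among the 117. Of the 22 tested genes outside the 117, 17 had a positive fitted change, with a median of 0.22 against 0.00205 over all genes. Since the list was made with values known, its counts are a description and nothing is read from them. With column totals, where the median ratio of all genes at the CPM limit was 1.055, 18 of the 22 had a ratio over 1. None passed an adjusted p of 0.05 in edgeR's quasi-likelihood test or in DESeq2. At an unadjusted p under 0.05 stood 2 in edgeR and 5 in DESeq2, and the share of all genes under that p is not given here. Without CK replicate 3 the number positive was 14, with a median of 0.12 and none under an unadjusted p of 0.05, and across the other alternatives the number ran from 16 to 18.

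The 4 genes of DNA synthesis outside the 117 all had a positive fitted change, and none passed. PCNA (LOC107779602), the sliding clamp of DNA polymerase, read 6.12, 7.05 and 5.73 CPM in CK, 12.7, 9.53 and 18.7 in P2.4a, 5.44, 13.2 and 13.04 in P3.9a, and 10.3, 6.64 and 14.5 in P9.10a. P3.9a replicate 1 and P9.10a replicate 2 fell among the CK values. Its fitted change was 0.79 (SE 0.31, edgeR adjusted p = 0.376). The second PCNA copy (LOC107778290) had 0.42 (SE 0.21, adjusted p = 0.482), and the ribonucleotide reductase subunit RNR1b, which makes deoxyribonucleotides, had 0.55 (SE 0.32, adjusted p = 0.560). The histone gene H2B1 stood at 0.06 (SE 0.16), and its sign turned without CK replicate 2 or P2.4a replicate 3.

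Genes of mitosis differed in level and in the sign of their fitted change. CdkB1-2, a plant-specific mitotic kinase, was at 0.956 to 2.49 CPM in CK and at 1.65 to 6.59 in the lines, with a median of 3.16 and 7 of 9 above CK (0.89, SE 0.36, edgeR adjusted p = 0.362). The spindle kinesin KIN5C had 0.90 (SE 0.42, adjusted p = 0.455) and the B-type cyclin CycB1 0.47 (SE 0.35, adjusted p = 0.667). The cytokinesis kinesin nack1 (-0.24, SE 0.13) and the inhibitory kinase wee1 (-0.45, SE 0.34) had negative values. Among D-type cyclins outside the 117, NtcycD3-1 stood at -0.17 (SE 0.11) and CycD2.1 at 0.12 (SE 0.17). The main kinase cdc2 (LOC107785170) was at 0.04 (SE 0.10), and E2FC was at -0.04 (SE 0.31), a sign that turned with column totals (ratio 1.04). Without CK replicate 3 the signs of CycD2.1 and cdc2 turned. None of these passed.

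Summed over the 23 listed genes outside the 117, CPM was 171 to 204 in CK and 181 to 294 in the lines, so the groups overlapped. The highest sum was that of P2.4a replicate 3, and without that library the transgenic sums ended at 236. The ratio of means was 1.17 with all libraries and 1.12 without that one, against a median of 1.055 over all genes at the CPM limit. Whether more dividing cells or more transcript per cell lies behind these sums was not tested.

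**Figure D3:**
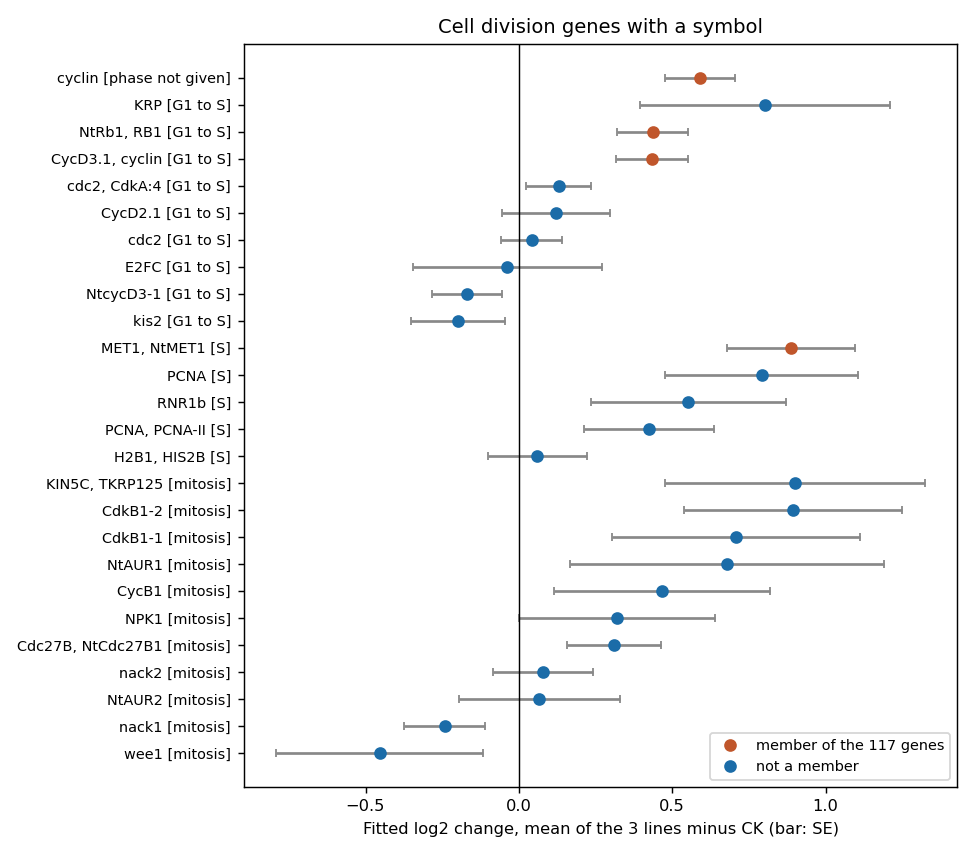
Fitted log2 change (mean of the 3 lines minus CK) of the 26 tested cell division genes, with the SE as a bar, grouped by the phase in which each gene acts. The 4 orange points are among the 117 genes and were chosen for being higher; of the 22 blue points 17 lie above 0 and none passed the test over all genes.

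Variation among replicates was also described for the 4 cell cycle members, which were listed after values had been seen. For each gene the group mean was taken off its log2 CPM, which leaves the spread among replicates over 12 libraries. The mean pairwise Pearson r of these deviations was 0.744 among the 4 cell cycle members (mean Spearman rho 0.769), 0.159 (0.149) over all 117 and 0.0506 (0.0494) over all genes at the CPM limit. These are descriptions over libraries that also share depth and composition, and the choice itself bears on the deviations. In CK replicate 3, for example, the median deviation of the 117 was -0.131, against -0.0378 over all genes at the limit. The mean deviation of the 22 cell cycle genes outside the 117 was highest in P2.4a replicate 3 (0.405), with P9.10a replicate 2 (-0.291) and CK replicate 3 (-0.288) lowest. An r of 0.7 or more with that mean, a limit chosen after values were seen, was found in 29 of the 117 genes (24.8%), against 3.52% of all genes at the limit. By Spearman's rho the number was 19 (16.2%), against 2.92%. In the 17 genes with a ratio of at least 2 the number was 8 (47.1%) by Pearson's r and 5 (29.4%) by Spearman's rho. That ratio was part of the choice. The choice used these same libraries, and the list and limit were set with values known, so nothing is read from any of these shares. The highest r belonged to 4 genes without a symbol, LOC107774566 (0.93), LOC107763465 (0.91), LOC107774645 (0.91) and LOC107778074 (0.90), and then came NtMET1 (0.89), NtRb1 (0.88) and CycD3.1 (0.86).

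The largest ratios belonged to a pair of genes without a symbol. LOC107807111 read 26.8, 29.1 and 24.6 CPM in CK, 675, 94.6 and 175 in P2.4a, 54.7, 1088 and 65.2 in P3.9a, and 369, 1211 and 1270 in P9.10a. The CK libraries were nearly alike, while each line spread widely, with the highest transgenic library 23.2 times the lowest. Its ratio of means was 20.7, its fitted change 4.16 (SE 1.26), and its lowest transgenic library still lay 1.88-fold above CK, the widest gap of the 117.

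LOC107781375 was almost unread in CK, with 2, 6 and 14 counts in the 3 libraries against 21 to 258 in the transgenic ones. In CPM these were 0.120, 0.325 and 0.836 in CK, 9.96, 1.33 and 7.77 in P2.4a, 5.44, 3.42 and 12.5 in P3.9a, and 16.1, 14.9 and 17.1 in P9.10a. P9.10a was high in all its libraries, and P2.4a replicate 2 lay close to CK. The ratio of means was 23.0 on these low CK counts, with a fitted change of 4.31 (SE 0.81). In edgeR's fit of all libraries neither LOC107807111 nor LOC107781375 passed over all genes. Both passed in DESeq2, and LOC107781375 also passed in edgeR without P2.4a replicate 2.

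Of the other genes with large ratios, LOC107786896 and LOC107775051 kept a wide gap to CK, whereas LOC107822467, LOC107785850, LOC107807223 and LOC107760761 came close to CK in some libraries. LOC107786896 read 8.10, 6.72 and 6.69 CPM in CK, 11.8, 16.1 and 11.7 in P2.4a, 21.1, 26.9 and 20.7 in P3.9a, and 22.4, 16.04 and 16.5 in P9.10a, with a fitted change of 1.23 (SE 0.15). All P3.9a libraries lay above all of P2.4a, and P9.10a overlapped both lines.

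LOC107775051 read 2.52, 2.60 and 3.11 CPM in CK, 4.98, 7.83 and 5.03 in P2.4a, 6.19, 10.7 and 6.49 in P3.9a, and 8.28, 8.35 and 7.61 in P9.10a, with a fitted change of 1.32 (SE 0.21). The lowest of the 9 was 1.60-fold above the highest CK library. These 2 were the members past an adjusted p of 0.05 in edgeR's fit of the mean of the lines. The background was 0.00765% of the genes tested, 3 genes higher in all, and nothing is read from the count since the choice used this contrast. Without P3.9a replicate 1 the count was 54, with 0.543% of all genes tested called higher. In DESeq2 it was 50, with 0.296% called higher.

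**Figure D4:**
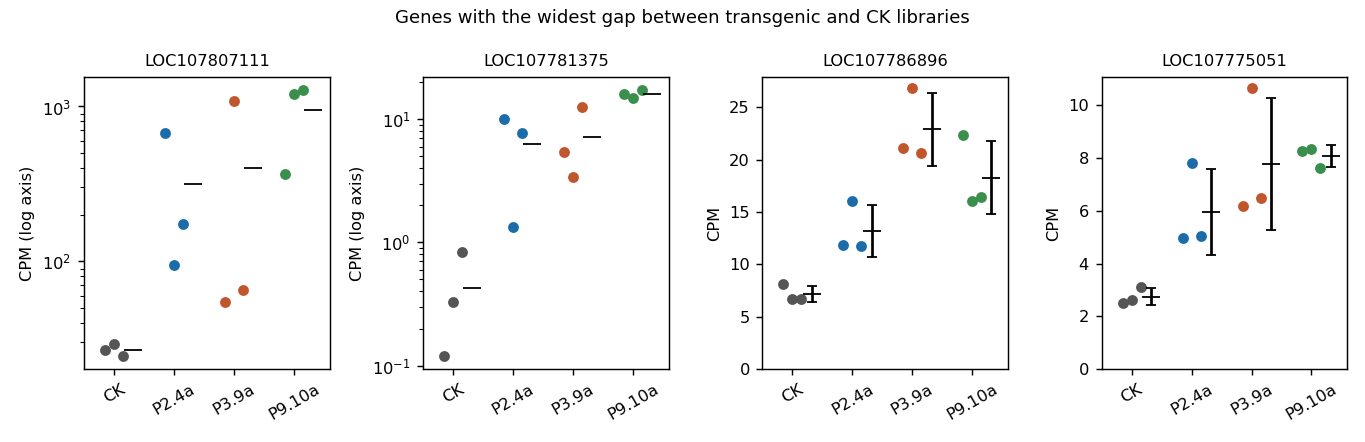
CPM by library of the 4 genes with the widest gap between transgenic and CK libraries; points are libraries and dashes are means of 3, with SD bars in the 2 panels on a linear axis. LOC107807111 and LOC107781375, on log axes, spread widely within lines, while the highest transgenic library of LOC107786896 and of LOC107775051 is under 3 times the lowest.

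LOC107822467 read 6.84, 5.15 and 3.70 CPM in CK, 15.003, 14.3 and 30.4 in P2.4a, 7.23, 18.8 and 19.1 in P3.9a, and 16.6, 7.23 and 16.6 in P9.10a. P3.9a replicate 1 and P9.10a replicate 2 came close to the highest CK library, and with TMM scaling 8 of 9 lay above it. LOC107785850, also with 8 of 9 above CK under TMM, read 2.70, 2.71 and 2.45 CPM in CK, 7.16, 6.50 and 12.7 in P2.4a, 2.89, 7.29 and 9.35 in P3.9a, and 6.04, 3.94 and 8.64 in P9.10a. LOC107807223 read 17.8, 17.2 and 6.93 CPM in CK, 18.9, 27.1 and 44.7 in P2.4a, 58.8, 36.8 and 43.2 in P3.9a, and 40.2, 25.2 and 25.2 in P9.10a, so P2.4a replicate 1 nearly met CK while P3.9a was high throughout. LOC107760761 ran from 1.91 to 3.48 CPM in CK and from 3.75 to 10.1, with a median of 5.91, in the transgenic libraries.

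By level, LOC107807111 came first, LOC107773083 second and the others under 120 CPM. LOC107773083 read 184, 164 and 147 CPM in CK, 216, 394 and 312 in P2.4a, 207, 455 and 416 in P3.9a, and 247, 359 and 351 in P9.10a. Replicate 1 was the lowest library of every line, although the replicate numbers are not known to mark a shared plot or day. Its ratio was 1.99 and its fitted change 0.92 (SE 0.25). LOC107763465 (CK 57.8 to 73.2, transgenic 81.7 to 114 with a median of 96.8 CPM) had a ratio of 1.43. LOC107830543 (CK 36.7 to 49.99, transgenic 50.6 to 74.4, median 62.4) had 1.48, and LOC107771123 (CK 32.7 to 42.9, transgenic 45.1 to 65.4, median 51.4) had 1.44.

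All 3 lines stood above CK over the 117, as the choice required. Their median ratios were close, and the choice bears on that too. The median ratio to CK was 1.5 for P2.4a (1.04 over all genes at the limit), 1.55 for P3.9a (1.08) and 1.49 for P9.10a (1.04). Of the 117 genes 62 had a ratio of at least 1.4 in each line, 42 in exactly 2 lines and 13 in 1. The highest line was P2.4a in 47 genes (40.2%, against 29.8% of all genes at the limit), P3.9a in 46 (39.3%, against 47.4%) and P9.10a in 24 (20.5%, against 22.9%). The comparisons with CK share their control libraries. In each single line 1 member passed in edgeR. It was LOC107794724 for P2.4a (background 0.00255%), and LOC107786896 for both P3.9a (background 0.0153%) and P9.10a (background 0.0051%). The choice used these contrasts too, so nothing is read from the counts.

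Differences among the lines were tested with edgeR's F test over all 39207 genes. The choice bears on this contrast too, through its limit on the lowest library and because a gene can reach the fold limit through 1 high line, as 13 of the 117 did. No member passed an adjusted p of 0.05, where the background was 0.00765% (3 genes). DESeq2 called 1 member, LOC107794724, where it called 0.117% of genes. At an unadjusted p under 0.05 stood 7 members (5.98%), against 2.89% of all genes tested and 2.33% of those at the CPM limit, shares that the choice shapes and from which nothing is read. In simulated counts this test recovered 14.9% of genes changed 1.5-fold in 1 line and 70.1% of those changed 2-fold. Those counts held no library that stood apart as P3.9a replicate 1 did, so the rates need not hold here.

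LOC107794724 had the smallest p among the lines, and it is a gene that reached the fold limit through P2.4a. Its ratio to CK was 2.23 for P2.4a, 1.30 for P3.9a and 1.28 for P9.10a, so a difference among lines is partly built into its choice. It read 12.7, 9.54 and 10.3 CPM in CK, 24.2, 19.7 and 28.7 in P2.4a, 14.5, 14.5 and 13.3 in P3.9a, and 13.2, 14.3 and 14.2 in P9.10a. Every P2.4a library lay above all 6 libraries of the other lines, which stood only just above CK, and with TMM scaling 7 of 9 lay above it. The fitted difference was -0.82 (SE 0.15) for P3.9a minus P2.4a and -0.80 (SE 0.15) for P9.10a minus P2.4a. The F test gave an edgeR adjusted p = 0.164, from 0.0726 to 0.903 over edgeR's alternatives. DESeq2 gave an adjusted p of 0.000525.

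LOC107786896 came next, highest in P3.9a (edgeR adjusted p = 0.907 among lines). LOC107830501 read 24.96, 24.9 and 25.6 CPM in P2.4a, 27.2, 25.6 and 25.5 in P3.9a, and 22.0, 19.2 and 19.2 in P9.10a, against 16.4, 18.5 and 14.99 in CK, so P9.10a was the lowest line. LOC107812708 was highest in P9.10a, at 20.9, 22.4 and 20.2 CPM against 14.7, 15.4 and 18.5 in P2.4a and 18.9, 17.2 and 18.5 in P3.9a. LOC107775979 had the same order, with means of 6.92 ± 1.34, 7.77 ± 0.953 and 9.54 ± 0.896 CPM (SD, n = 3) in P2.4a, P3.9a and P9.10a. LOC107815075 was highest in P3.9a through replicate 1, at 31.6 CPM against 16.8 and 20.7 in the other replicates. None of these differences passed the adjustment.

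**Figure D5:**
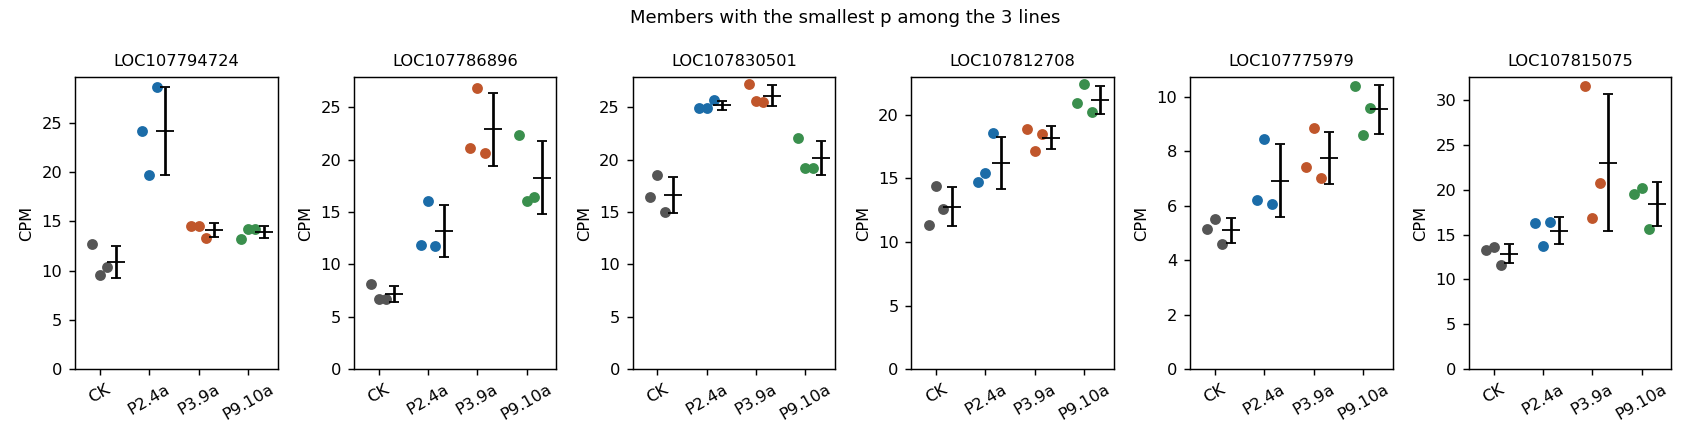
CPM by library of the 6 genes with the smallest p among the 3 lines; points are libraries and the bar is the mean and SD of 3. LOC107794724 is high in P2.4a alone of the lines, and LOC107812708 and LOC107775979 are highest in P9.10a.

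Single libraries set which genes met the choice. The lowest of the 9 was P3.9a replicate 1 in 27 genes, P9.10a replicate 2 in 22, P2.4a replicate 1 in 21 and P3.9a replicate 2 in 3. The highest CK library was replicate 2 in 53 genes, replicate 1 in 51 and replicate 3 in 13. Leaving out 1 library in turn, the number that met the conditions ran from 116 to 396, and 61 of the 117 genes failed them in at least 1 of these 12 runs. Without P3.9a replicate 1 the number was 283, of which 110 are among the 117. Without CK replicate 3, the number was 142 and 37 of the 117 dropped out.

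At the fold limit, LOC107826747 (1.4007), LOC107806872 (1.4023) and LOC107803966 (1.4033) lay just inside, and LOC107780847 (1.3997), LOC107775742 (1.3993) and LOC107764930 (1.3981) just outside. At the CPM limit, LOC107817884 (5.03 CPM), LOC107796170 (5.10) and LOC107795459 (5.13) lay just inside, and LOC107827828 (4.97), LOC107796999 (4.96) and LOC107807055 (4.95) just outside.

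In the reference table's gene order, 6 of the 111 members with a place had another member within 20 places (5.41%, against 5.74% of all genes at the limit). These pairs were LOC107786896 with LOC107791916, 9 places apart, LOC107813395 with LOC107823168, 6 apart, and LOC107769887 with LOC107773083, 17 apart. The share was near that of all genes.

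Of 21 lists of leaf functions searched by symbol, 11 held a tested gene. Members fell in 1 of them, dividing cells and histones. All 5 tested genes of that list had a positive value, but 2 are members, whose higher level was set by the choice. Of the 37 tested genes in the 11 lists none passed in edgeR, where 8 were under an unadjusted p of 0.05. The share of all genes under that p is not given here, so nothing is read from the 8. DESeq2 called 4, the bare-symbol cyclin (0.59) and POR1 (0.67) higher and the chaperones dnaJ (-1.10) and HSP101 (-1.30) lower. Of all genes tested DESeq2 called 0.296% higher, and the share called lower is not given here. That cyclin is a member, so nothing is read from its call. The 6 tested genes of the chaperone and heat shock list all had a negative value, with a median of -0.75 in edgeR. Of other cell types, the summed CPM of 3 vascular markers was 163 to 215 in CK and 203 to 253 in the lines. That of 6 markers of dividing cells was 64.5 to 78.2 in CK and 76.2 to 122.7 in the lines. These ranges overlapped. CycD3.1, 1 of the 6, is among the 117, so its part of the higher sums comes from the choice. It gave 19.7 to 25.1 CPM of the sum in CK and 26.0 to 37.7 in the lines. The summed CPM of 4 flower markers was 47.8 to 51.03 in CK and 30.6 to 70.5 in the lines. The flower gene AG1 was at 0 in all but 1 library. The part of these markers in the values of the 117 genes was not tested.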

How the data were processed

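The authors deposited whole-number read counts per gene, not normalized, for 12 leaf libraries. HISAT2 2.1.0, SAMtools and bedtools 2.25.0 are named in the submitters' processing notes, with no roles given. Libraries were made with a directional kit, per the labels' protocols; how reads were counted, whether strand was used, and the build are not stated in those sources, and coordinates are left out. Symbols came from a RefSeq gene table of ASM71507v2, which held 49014 of the 61526 identifiers, 1081 with a symbol.

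CPM is the count over the column total. The tests used edgeR 4.0.16 under R 4.3.3 (TMM, filterByExpr with a minimum count of 10, robust quasi-likelihood, Benjamini-Hochberg at 0.05) on 39207 genes, in 1 fit of all 12 libraries (8 residual degrees of freedom). The biological coefficient of variation was 16.4%. Deviations used log2 of CPM plus 0.5. DESeq2 1.42.0 was an alternative, with RLE scaling, no filter, a replicate block and each library left out. P-values and SEs were judged against the spread between libraries of the same group, in 1 field experiment. For the mean of the lines against CK they leave out variation from line to line. That comparison rests on 3 transgenic lines, and the number of lines and of libraries limits the precision.

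On simulated data of 38912 genes the fit recovered 28.4% of genes raised 1.5-fold in all lines. It recovered 67.2% of those raised 2-fold and 98.5% of those raised 4-fold, with 15 false calls among 168. No simulated library stood apart as P3.9a replicate 1 did, so these rates need not hold for the real libraries.

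The members and lists were chosen with earlier results of these data known. Named genes are those with a symbol, the 8 largest ratios, the 6 highest levels, members that passed, the 6 smallest p among lines, those next to a limit and neighbours. Genes outside this rule were chosen after their values were seen. Promoter and protein sequences were not analysed here.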

Additional observations from a re-analysis of the deposited data

How the results depend on the processing

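The 117 genes became 50 with TMM scaling and 51 with DESeq2 size factors, 532 with no fold limit, 17 with a fold limit of 2, 256 with a CPM limit of 1 and 62 with a limit of 10. Without P2.4a, P3.9a or P9.10a they became 193, 276 and 233, and with 1 library left out 116 to 396 (396 without CK replicate 1, 327 without CK replicate 2, 283 without P3.9a replicate 1). In the counts that follow, brackets hold the share of all genes tested that was called higher. Members past the threshold in edgeR for the mean of the lines were 2 (0.00765%), but 50 in DESeq2 (0.296%). They were 6 with no filter (0.0201%) and 1 to 54 with 1 library left out (0.00504% to 0.543%). For P2.4a, P3.9a and P9.10a the number was 1 each (0.00255%, 0.0153% and 0.0051%). In DESeq2 it was 21, 15 and 12 (0.125%, 0.194% and 0.0918%). Without the low-count filter it was 2 in P3.9a (0.0322%) and 2 in P9.10a (0.00403%). With 1 library left out it ran from 0 to 6 in P2.4a (0% to 0.053%). In P3.9a it ran from 1 to 9 (0.00504% to 0.129%) and in P9.10a from 0 to 2 (0% to 0.00757%). The highest counts of P2.4a and P3.9a came without P3.9a replicate 1. Among the lines DESeq2 called 1 member, where it called 0.117% of all genes, and edgeR called 0 members in every fit. The cause of these moves was not tested. Replicate numbers did not pair the libraries: of 18 same-number pairs 6 had a correlation of deviations over 0.1 (range -0.481 to 0.396), and 3 of 12 libraries correlated best with their own number. With the replicate block 1 member passed for the mean, where 0.0051% of all genes were called higher, and 0 in P2.4a. LOC107775051 passed in 4 of the 12 fits with 1 library left out and not with the block. No fitted change of the members named by the rule, or of the genes next to a limit, turned its sign. Of the 13 cell division genes named from outside the 117, 4 with values near 0 did. With 1 library left out H2B1 ran from -0.0563 (without P2.4a replicate 3) to 0.144, CycD2.1 from -0.0048 (without CK replicate 3) to 0.334, cdc2 from -0.0315 (without CK replicate 3) to 0.0816, and E2FC from -0.176 to 0.225 (without CK replicate 1). The transgenic mean was under 10 CPM in 47.0% of the 117, so counting error bears on the gaps between single libraries.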
